A study of Mus musculus with 12 samples.

Results

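Fatty acid oxidation and ketogenesis were followed in mouse liver through 42 genes, chosen by name from the 50499 genes of a table of RNA-seq counts. They cover mitochondrial and peroxisomal fatty acid oxidation, acyl-CoA thioesterases, a ketone body enzyme, and PPARA with some of its targets. The study set out to reduce Aatf in the liver in a diet model of steatohepatitis, a fatty liver with inflammation. There were 12 libraries in 4 groups of 3, all from male C57bl/6 mice that had been put on their diet at 6 weeks of age. Western siAATF mice received a Western diet with sugar water and, after 12 weeks, an AAV8 vector by tail vein that carried siAATF under the TBG promoter, which is active in hepatocytes. Western null mice had the same diet and the same vector with no insert. Chow siAATF and chow null mice received these vectors on chow with normal water. All mice carried the vector for a further 12 weeks, so no group was free of AAV. The labels number the replicates 1 to 3 and do not state that each is a separate mouse, so p-values measure the spread between these libraries only.

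Hepatocytes burn fatty acids by cutting acyl-CoA into acetyl-CoA units. Acyl-CoA synthetases activate the fatty acid, the carnitine shuttle brings it into the mitochondrion, and dehydrogenases, hydratases and thiolases shorten it there, with electrons passing through ETF to the respiratory chain. Peroxisomes shorten the longest chains and dicarboxylic acids, and thioesterases release free acids from acyl-CoA. When much acetyl-CoA is made, as in fasting, the liver turns it into ketone bodies. PPARA is a nuclear receptor that binds fatty acids and, with RXR, activates many of these genes.

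Total counts ran from 1646853 to 13469819 per library, and the members held 26772 to 252956 of them. In Western siAATF replicates 1 to 3, 19.8%, 50.8% and 0.871% of all counts fell on 18S ribosomal RNA, and between 1.54% and 41.4% in the other 9 libraries. Levels are given as CPM, which are read counts scaled to a common library size. Counts took in the whole span of a gene, introns included. Of the 42 members 41 passed the filter on low counts. Acot4, a peroxisomal thioesterase, lies wholly inside the predicted gene Gm40474 and is listed at 0 in every library, so it is not analysed here. Aatf, the gene named by the vector, stood at 27.0, 27.5 and 28.2 CPM in Western siAATF, against 27.6, 21.1 and 30.0 CPM in Western null. In chow siAATF it stood at 39.2, 24.6 and 40.5 CPM, against 36.8, 26.5 and 31.6 CPM in chow null. The count of Aatf was therefore not lower in the libraries labelled siAATF, and every direction given below for siAATF is that of libraries with this label.

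Replicate 3 of Western siAATF stood apart for these genes. It was the highest of the 12 libraries for 36 of the 41 members tested, against 12.7% of all 11934 genes tested. Western siAATF replicates 1 and 2 both lay below every Western null library for 33 of the 41, against 17.6% of all genes. For 29 members both held, with replicate 3 above and replicates 1 and 2 below every Western null library, against 5.60% of all genes. The members took 1.43%, 1.36% and 4.86% of the counts other than 18S in Western siAATF replicates 1 to 3. They took 2.43%, 2.47% and 2.28% in Western null, 1.90%, 1.91% and 1.83% in chow siAATF, and 1.71%, 1.71% and 1.55% in chow null. Replicate 3 was singled out after its values were seen. Counts of members called are given with and without it, as are the fold changes of some genes.

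**Figure D1:**
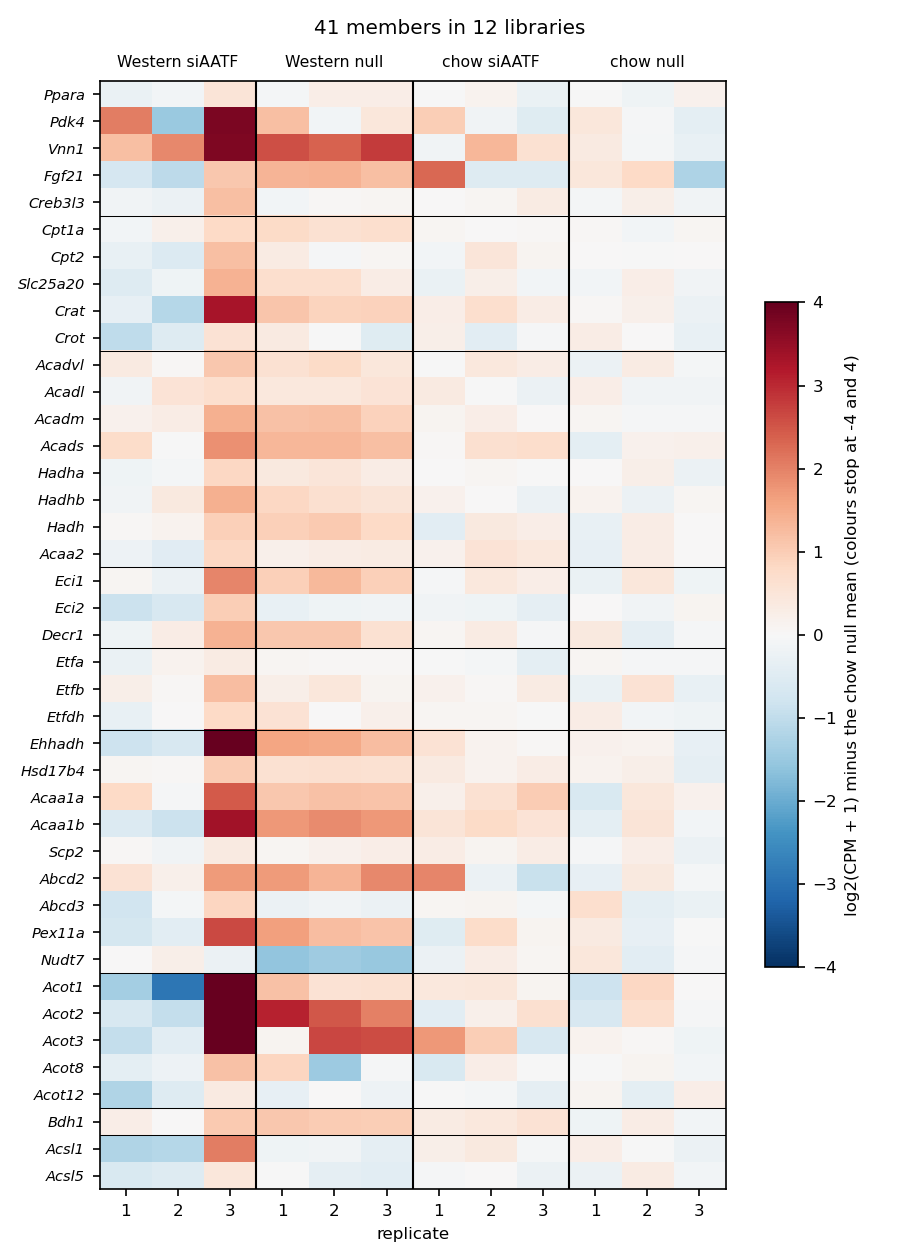
Level of the 41 members tested in each of the 12 libraries, as log2(CPM + 1) minus the chow null mean, with rows grouped by role and columns by group and replicate. Western siAATF replicate 3 is red for nearly every row while replicates 1 and 2 are pale or blue for most, Western null is red for many rows, and Nudt7 is blue in the 3 Western null libraries.

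Promoters of members were searched for the direct repeat that PPARA and RXR bind, written AGGTCANAGGTCA, on both strands of the 250 bases before to 50 bases after each RefSeq start. Up to 2 of the 12 fixed letters were allowed to differ, and no other motif was searched. Entries existed for 36 of the 42 members. A match was found in 5 of them (13.9%), namely Slc25a20, Etfa, Acot4, Acot12 and Creb3l3, against 4.40% of the 27025 genes with an entry. Shown are the promoters of Ehhadh and Acot1, which differed greatly between the Western siAATF libraries and hold no match, and of Acot12 and Slc25a20, which hold one and differed less between them. Capitals mark the match, which in Acot12 reads on the opposite strand. It begins 110 bases before the start in Acot12 and differs in 1 letter, and it begins 6 bases after the start in Slc25a20 and differs in 2 letters. The windows are RefSeq entries on build GRCm38.p6, printed 5′ to 3′ on the gene's strand: chr16:21787785-21788084 (minus strand) for Ehhadh, chr12:84009252-84009551 (plus) for Acot1, chr13:91741271-91741570 (plus) for Acot12 and chr9:108661886-108662185 (plus) for Slc25a20.
Ehhadh: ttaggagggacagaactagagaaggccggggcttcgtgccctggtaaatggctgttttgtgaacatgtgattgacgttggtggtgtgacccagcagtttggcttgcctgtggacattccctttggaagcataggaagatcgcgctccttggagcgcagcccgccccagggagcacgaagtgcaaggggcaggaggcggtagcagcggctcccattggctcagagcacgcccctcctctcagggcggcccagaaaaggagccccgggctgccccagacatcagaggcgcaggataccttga
Acot1: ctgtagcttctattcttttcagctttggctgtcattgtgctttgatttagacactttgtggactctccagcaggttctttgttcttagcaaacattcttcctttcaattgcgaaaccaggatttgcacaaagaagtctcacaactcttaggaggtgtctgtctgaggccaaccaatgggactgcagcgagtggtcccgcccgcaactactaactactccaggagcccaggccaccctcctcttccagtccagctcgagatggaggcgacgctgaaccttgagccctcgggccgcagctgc
Acot12: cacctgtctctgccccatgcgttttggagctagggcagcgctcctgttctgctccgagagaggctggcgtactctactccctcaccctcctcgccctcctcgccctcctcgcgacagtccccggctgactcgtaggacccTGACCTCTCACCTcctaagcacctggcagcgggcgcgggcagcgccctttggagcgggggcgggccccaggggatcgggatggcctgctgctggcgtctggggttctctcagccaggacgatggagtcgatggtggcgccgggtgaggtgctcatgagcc
Slc25a20: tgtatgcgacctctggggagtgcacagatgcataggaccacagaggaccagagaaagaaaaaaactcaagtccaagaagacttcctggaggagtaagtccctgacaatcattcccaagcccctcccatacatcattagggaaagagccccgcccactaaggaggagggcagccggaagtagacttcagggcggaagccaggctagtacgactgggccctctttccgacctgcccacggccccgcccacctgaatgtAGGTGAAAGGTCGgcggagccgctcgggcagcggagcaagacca
A match is a description of letters, not a binding site, and an absent match says only that these letters are not in the window.

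The diet was compared in the null livers. In Western null, 5 members rose against chow null (Acadm, Acads, Hadh, Bdh1 and Vnn1) and 1 fell (Nudt7), at a threshold of 0.05 on the p adjusted over all genes (Benjamini-Hochberg) from quasi-likelihood tests in edgeR. Of all genes tested, 6.44% were called higher and 6.77% lower. Western null lay wholly above chow null for 22 of the 41 members, against 17.7% of all genes, and wholly below for Nudt7 alone, against 17.0%. The fold change was positive for 34 of 41, against 48.4% of all genes, and its median over members was 0.59 on the log2 scale, against -0.028 over all genes. All 12 libraries share 1 estimate of spread in this test. With Western siAATF replicate 3 left out of that estimate, a setting added after the data were seen, 17 members were called higher, against 9.08% of all genes, and Nudt7 remained lower, against 9.1%. DESeq2 and limma-voom each called 7 members higher, the same 5 with Cpt1a and Abcd2, against 4.41% and 8.08% of all genes in those fits. Here and below, DESeq2 shares are of 22289 genes with any count, and limma-voom shares of the 11934 genes past the filter. The shares of these tools therefore have unlike bases. Without chow null replicate 3, 0 members were called higher, against 2.78% of all genes. Without Western null replicate 1 or 2 it was 1 member, against 3.72% and 3.57%. Without chow null replicate 1 or Western null replicate 3 it was 2, against 3.51% and 4.18%. At an unadjusted p under 0.05, 13 members were higher and 1 lower, against 13.6% and 14.8% of all genes.

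**Figure D2:**
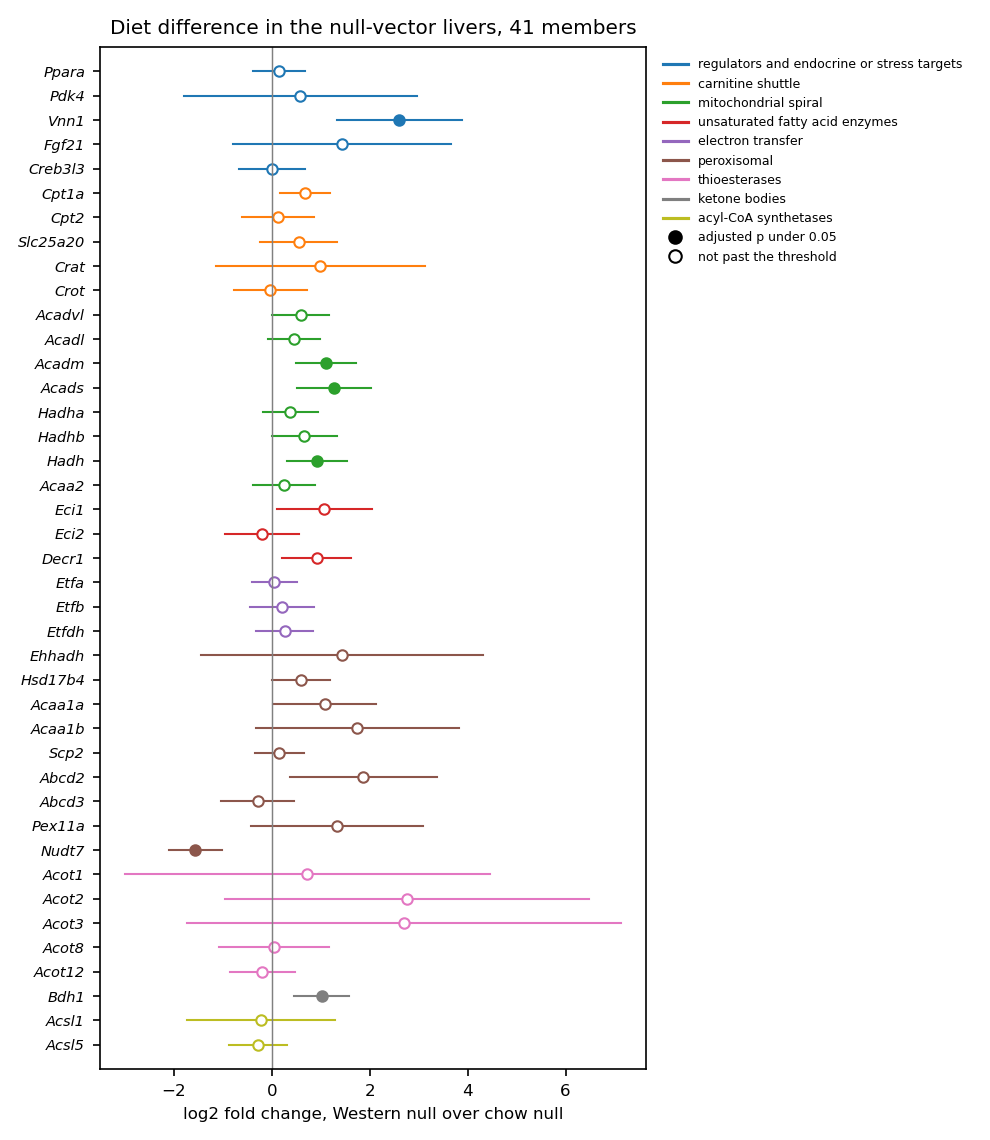
Log2 fold change of Western null over chow null for the 41 members tested, coloured by role. The 95% intervals were derived from the quasi-likelihood tests of the edgeR fit of 12 libraries. Filled points passed an adjusted p of 0.05: Acadm, Acads, Hadh, Bdh1 and Vnn1 to the right of 0 and Nudt7 to the left.

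The vector was compared on each diet. Between the libraries labelled Western siAATF and Western null, 1 member rose (Nudt7), against 0.31% of all genes called higher, and 0 fell, against 0.561% called lower. At an unadjusted p under 0.05, Nudt7 alone was higher and 0 members were lower, against 5.56% and 5.09% of all genes. DESeq2 and limma-voom also called 1 member higher, against 0.565% and 0.168% of all genes, and 0 lower, against 0.601% and 0.587%. Western siAATF lay wholly above Western null for Nudt7 alone, against 7.69% of all genes, and wholly below for Fgf21 alone, against 7.87%. The median log2 fold change was -0.032 over members and 0.059 over all genes. Without Western siAATF replicate 3 the picture was another one: 39 of 41 fold changes were negative, against 48.3% of all genes, the median was -0.68 against 0.020 over all genes, and 11 members were called lower, against 1.71% of all genes. These were Acadm, Eci1, Ehhadh, Acaa1b, Pex11a, Acot1, Acot2, Acot3, Crat, Bdh1 and Acsl1. Nudt7 remained called higher, against 1.62% of all genes. That count rests on 2 libraries, and leaving out the library that differs also narrows the estimated spread. Both Western comparisons share the Western null libraries.

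**Figure D3:**
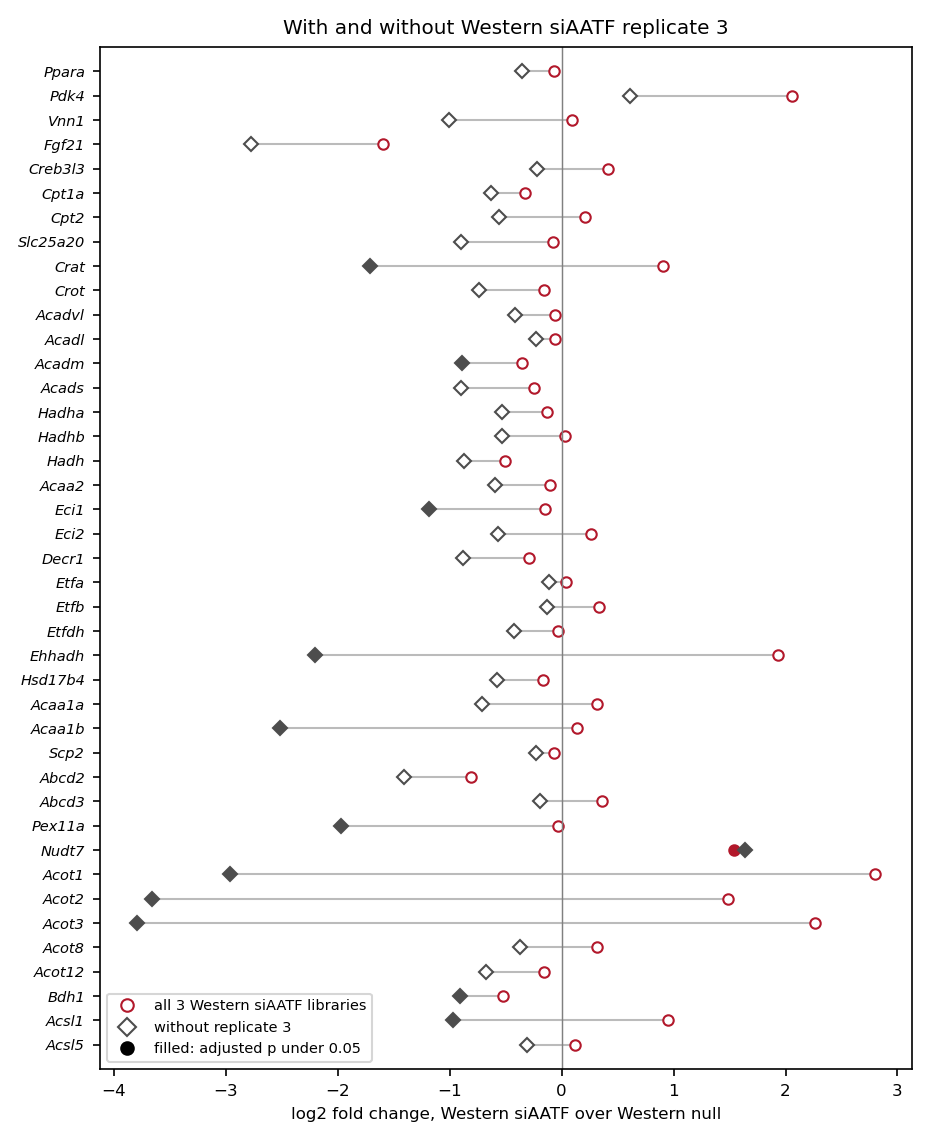
Log2 fold change of Western siAATF over Western null for the 41 members tested, with all 3 Western siAATF libraries (circles) and without replicate 3 (diamonds), joined by a line. Filled symbols passed an adjusted p of 0.05: Nudt7 in both fits, and 11 members on the negative side without replicate 3.

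On chow, siAATF against null called 0 members and 0 genes of all those tested (0.0% in both directions) with edgeR, and DESeq2 and limma-voom also called 0 members. At an unadjusted p under 0.05 there were 0 members in either direction, against 1.06% of all genes higher and 1.32% lower. The median log2 fold change was 0.18 over members and -0.027 over all genes. Chow siAATF lay wholly above chow null for Acaa1b, Crat and Bdh1, against 4.25% of all genes, and wholly below for Eci2, against 4.32%. Between Western siAATF and chow siAATF, edgeR called 0 members in either direction, against 0.763% of all genes higher and 0.721% lower. No member lay wholly above or below, against 9.24% and 8.36% of all genes. At an unadjusted p under 0.05, 6 members were higher and 0 lower, against 9.1% and 6.08% of all genes. DESeq2 called 1 higher, Vnn1, against 1.22% of all genes, and limma-voom 0, against 0.771%. Without Western siAATF replicate 3, Ehhadh, Acaa1b, Acot1, Crat and Acsl1 were called lower there, against 2.7% of all genes, and 0 higher, against 3.26%. The interaction of diet and vector asks whether the vector difference itself depends on diet. It passed for 0 members with edgeR, against 0.101% of all genes higher and 0.0922% lower, and at an unadjusted p under 0.05 for 1 member higher and 1 lower, against 5.3% and 3.86%. DESeq2 called 1 higher, Nudt7, against 0.292% of all genes, and limma-voom 0, against 0.00838%. Without replicate 3, Nudt7 was called higher and 10 members lower (Acads, Eci1, Ehhadh, Acaa1b, Pex11a, Acot1, Acot2, Acot3, Crat and Bdh1), against 1.16% and 1.23% of all genes.

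Among the regulators, Ppara, the receptor itself, stood at 292, 328 and 509 CPM in Western siAATF and 336, 421 and 423 CPM in Western null. It stood at 353, 389 and 295 CPM in chow siAATF and 351, 313 and 401 CPM in chow null. The groups overlapped, with replicate 3 of Western siAATF the highest library. Its log2 fold change was -0.065 ± 0.25 (SE) for Western siAATF over Western null and 0.15 ± 0.25 for Western null over chow null, and neither passed (edgeR, adjusted p = 0.948 and 0.736). Creb3l3, a liver transcription factor of the fasting response, stood at 246, 230.3 and 620.2 CPM in Western siAATF, 254, 280.4 and 287 CPM in Western null, 276, 288 and 343 CPM in chow siAATF and 256, 319 and 243 CPM in chow null. Again 1 library, Western siAATF replicate 3, stood above all others, and the other 11 lay within 230.3 to 343 CPM. Its fold change was 0.41 ± 0.32 for the vector on the Western diet and 0.0061 ± 0.32 for the diet, with adjusted p of 0.701 and 0.992.

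Fgf21 encodes a hormone that the liver secretes in fasting and stress. It rested on few reads, 5 to 103 counts per library. It stood at 1.77, 1.13 and 8.36 CPM in Western siAATF, 10.4, 10.6 and 9.25 CPM in Western null, 20.6, 2.09 and 2.09 CPM in chow siAATF and 5.03, 6.78 and 0.871 CPM in chow null. Here replicate 3 lay below the Western null libraries, and the highest library was chow siAATF replicate 1. The log2 fold change was -1.59 ± 1.06 for Western siAATF over Western null and 1.43 ± 1.02 for Western null over chow null, and neither passed (edgeR, adjusted p = 0.659 and 0.384). Without replicate 3 of Western siAATF, the fold change of Fgf21 over Western null was -2.78 ± 1.24 (edgeR, adjusted p = 0.293). Pdk4 encodes a kinase that shuts off pyruvate dehydrogenase and so favours the use of fat. It stood at 39.8, 2.50 and 133 CPM in Western siAATF, 21.7, 8.18 and 12.4 CPM in Western null, 18.3, 7.88 and 6.06 CPM in chow siAATF and 12.3, 8.47 and 6.44 CPM in chow null. Western siAATF held both the highest and the lowest of the 12 values. The fold changes were 2.06 ± 1.03 for the vector on the Western diet and 0.58 ± 1.06 for the diet (edgeR, adjusted p = 0.545 and 0.759). Without replicate 3 of Western siAATF, that for the vector was 0.61 ± 0.90 (edgeR, adjusted p = 0.787).

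Vnn1, a pantetheinase and PPARA target, stood at 53.5, 88.7 and 313 CPM in Western siAATF, 141, 121 and 162 CPM in Western null, 20.6, 58.9 and 34.7 CPM in chow siAATF and 29.4, 21.5 and 18.4 CPM in chow null. Western null averaged 141 ± 20.5 CPM and chow null 23.1 ± 5.67 CPM (SD, n = 3 each), with no overlap. Vnn1 rose in Western null by 2.61 ± 0.59 on the log2 scale (edgeR, adjusted p = 0.0137). The call was lost without chow null replicate 3. Chow null replicates 1 and 2 had 25.2% and 30.4% 18S. Leaving out the libraries over 25% 18S therefore kept only replicate 3 of chow null, and that fit is not used for this call. In Western siAATF, replicates 1 and 2 lay below and replicate 3 above the Western null libraries. The fold change of Western siAATF over Western null was 0.091 ± 0.55 (edgeR, adjusted p = 0.969). Without replicate 3 it was -1.01 ± 0.36 (edgeR, adjusted p = 0.137).

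The acyl-CoA synthetases Acsl1 and Acsl5 attach coenzyme A to long-chain fatty acids. Acsl1 stood at 591, 625 and 5633 CPM in Western siAATF, 1222, 1245 and 1067.5 CPM in Western null, 1617, 1794 and 1293 CPM in chow siAATF and 1622, 1353 and 1155 CPM in chow null. Replicates 1 and 2 of Western siAATF were the lowest of the 12 libraries and replicate 3 the highest, at 9.53 and 9.02 times the level in the other two. Acsl5 followed the same order over a narrower range, at 150.4, 159.8 and 312 CPM in Western siAATF against 169.0 to 227 CPM in Western null. Neither passed with all libraries (log2 fold change of Western siAATF over Western null 0.95 ± 0.69 for Acsl1 and 0.12 ± 0.28 for Acsl5, edgeR, adjusted p = 0.691 and 0.918). Without replicate 3, Acsl1 fell by 0.97 ± 0.24 on the log2 scale (edgeR, adjusted p = 0.0279). Part of the span of Acsl5, 15.1%, is shared with another gene, so part of its reads may be missing.

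The carnitine shuttle was represented by 5 members. Cpt1a, the outer-membrane enzyme that limits entry into the mitochondrion, stood at 369, 460.0 and 689.7 CPM in Western siAATF, 673, 601 and 636 CPM in Western null, 416, 402 and 408 CPM in chow siAATF and 409.9, 366 and 419 CPM in chow null. The 3 Western null libraries lay above all 6 chow libraries. The diet difference was 0.68 ± 0.24 on the log2 scale and did not pass in the shared fit (edgeR, adjusted p = 0.0754), while DESeq2, limma-voom and the fit without Western siAATF replicate 3 called it. Between Western siAATF and Western null it was -0.33 ± 0.24 (edgeR, adjusted p = 0.687). Crat, which moves acyl groups of short chains between carnitine and coenzyme A, stood at 37.4, 20.9 and 477 CPM in Western siAATF, 105, 88.3 and 90.7 CPM in Western null, 57.7, 76.9 and 58.1 CPM in chow siAATF and 49.0, 54.2 and 40.2 CPM in chow null. Its replicate 3 value was 12.8 and 22.9 times those of replicates 1 and 2. Cpt2, the inner-membrane partner of Cpt1a, and Slc25a20, the carnitine-acylcarnitine carrier, were also highest in replicate 3, at 245 and 232 CPM, with 73.1 to 86.5 and 61.9 to 77.4 CPM in the other two. Crot, the peroxisomal carnitine octanoyltransferase, stood at 502, 715 and 1503 CPM in Western siAATF, against 728 to 1301 CPM in Western null. With edgeR and all 12 libraries, no shuttle member passed for Western null over chow null or for Western siAATF over Western null.

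The mitochondrial spiral held 8 members. In Western null against chow null 3 of them rose and 0 fell, against 6.44% and 6.77% of all genes. The median log2 fold change of the 8 was 0.63, against -0.028 over all genes. Acadm, the medium-chain acyl-CoA dehydrogenase, stood at 216, 235 and 522 CPM in Western siAATF, 433, 446 and 362 CPM in Western null, 207, 229.9 and 196 CPM in chow siAATF and 204, 187 and 187 CPM in chow null. All 3 Western null libraries lay above all 6 chow libraries, while Western siAATF had 2 libraries near the chow levels and 1 above Western null. The diet difference was 1.10 ± 0.29 on the log2 scale (edgeR, adjusted p = 0.0202), from 414 ± 45.2 CPM in Western null and 193 ± 9.53 CPM in chow null (SD, n = 3 each). Acads, the short-chain dehydrogenase, stood at 199, 117 and 423 CPM in Western siAATF, 298, 303 and 276 CPM in Western null, 124, 184 and 194 CPM in chow siAATF and 91.4, 133 and 138 CPM in chow null. It rose in Western null by 1.28 ± 0.36 on the log2 scale (edgeR, adjusted p = 0.0277). Hadh, which oxidizes hydroxyacyl-CoA of short and medium chains, stood at 179, 192 and 343 CPM in Western siAATF, 341, 364 and 304 CPM in Western null, 131, 229 and 210.5 CPM in chow siAATF and 142, 214 and 176 CPM in chow null. It rose in Western null by 0.93 ± 0.29 on the log2 scale (edgeR, adjusted p = 0.0428). Of all members of the spiral, Hadh was the only one for which replicate 3 of Western siAATF was not the highest library. With 1 library of either group or Western siAATF replicate 3 left out, these 3 stayed past the threshold in 2 to 4 of 7 fits. Without the libraries over 25% 18S only replicate 3 of chow null was left, so that fit is not counted among them. None of the 3 genes changed direction in any of 18 other settings.

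Hadha, the alpha subunit of the trifunctional protein for long chains, stood at 320.4, 347 and 642 CPM in Western siAATF, 476, 508 and 451 CPM in Western null, 369.9, 383 and 357 CPM in chow siAATF and 371, 425 and 306 CPM in chow null. Western null lay above both chow groups by a small margin, and the difference from chow null, 0.38 ± 0.26 on the log2 scale, did not pass (edgeR, adjusted p = 0.362). Western siAATF differed from Western null by -0.13 ± 0.26 (edgeR, adjusted p = 0.90). Hadhb, its beta subunit and its neighbour on chromosome 5, stood at 120.3, 176 and 356 CPM in Western siAATF, against 238, 209 and 192 CPM in Western null. Acadvl and Acadl, the dehydrogenases of very long and long chains, differed by 0.59 ± 0.27 and 0.45 ± 0.25 between Western null and chow null (edgeR, adjusted p = 0.166 and 0.247). Acaa2, a thiolase, differed by 0.25 ± 0.30 (edgeR, adjusted p = 0.612). Over the 8 members, replicate 3 of Western siAATF stood 1.08 to 3.62 times above replicates 1 and 2, a narrower range than in Acsl1 or Crat.

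Eci1, Eci2 and Decr1 prepare unsaturated fatty acids for oxidation. Eci1, an isomerase, stood at 74.5, 59.5 and 279 CPM in Western siAATF, 139, 175 and 139 CPM in Western null, 68.5, 94.9 and 85.9 CPM in chow siAATF and 58.8, 96.6 and 62.0 CPM in chow null. Western null lay above both chow groups, and the difference of 1.07 ± 0.45 from chow null did not pass (edgeR, adjusted p = 0.135). Decr1, a reductase, differed by 0.91 ± 0.34 (edgeR, adjusted p = 0.0815). Eci2 showed no such order, at 135.8 to 154 CPM in Western null and 152 to 182 CPM in chow null, and 32.6% of its span is shared with other genes. Electron transfer genes differed little: Etfa and Etfb, the subunits of the electron transfer flavoprotein, and Etfdh, which passes its electrons to ubiquinone, differed by 0.050 to 0.26 between Western null and chow null, and none passed.

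**Figure D4:**
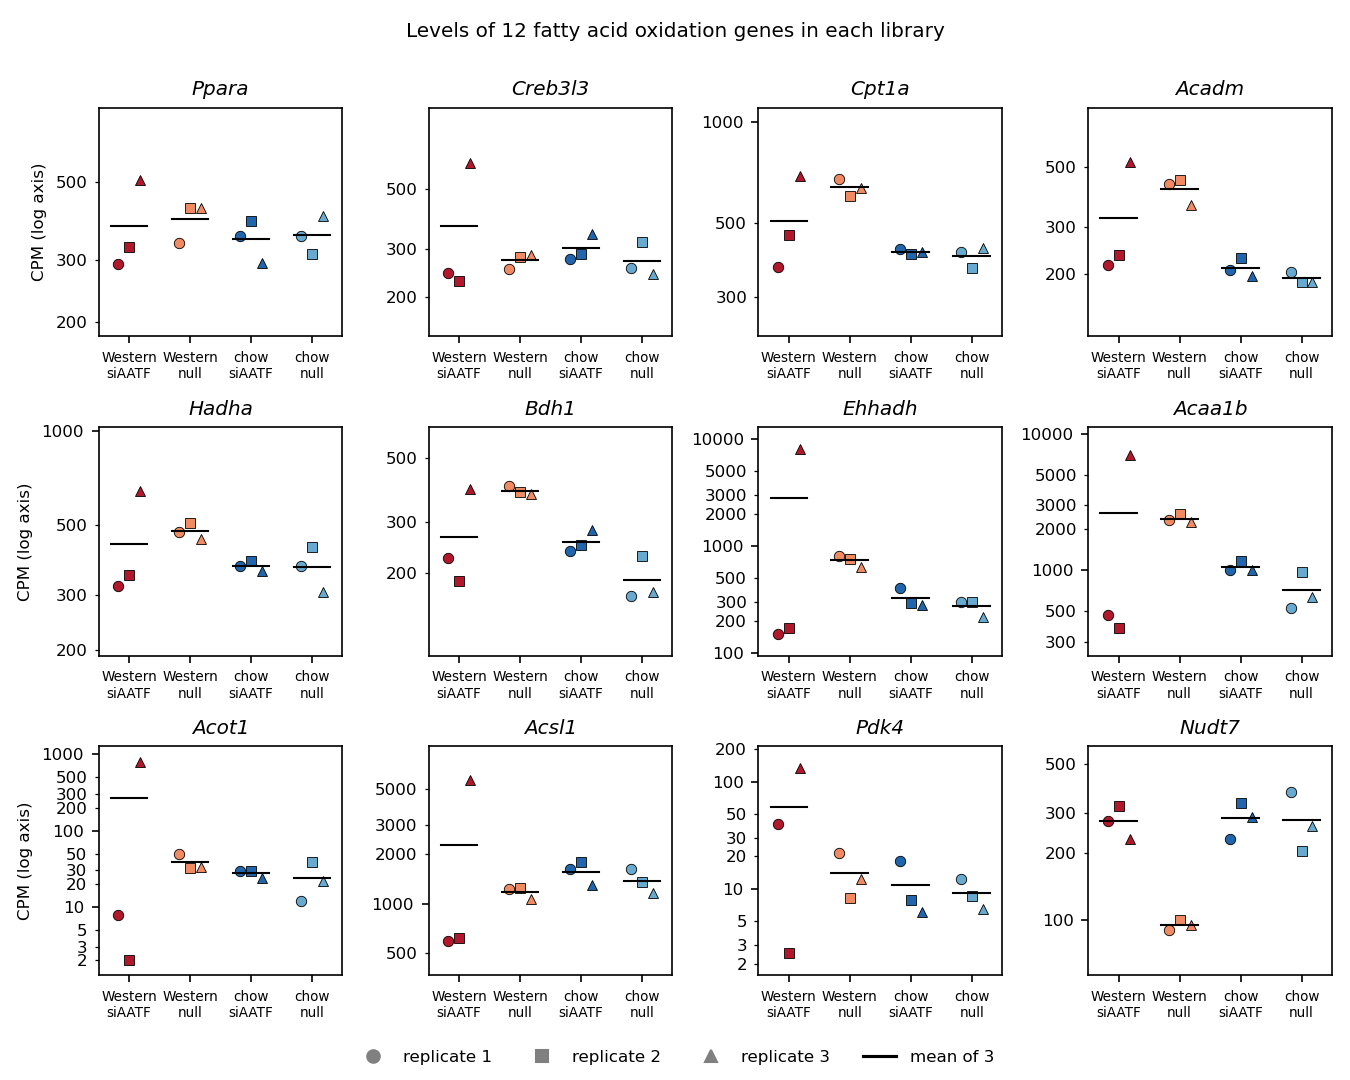
CPM of 12 members in each library on a log axis, with a symbol for each replicate and a bar at the mean of 3, for Western siAATF, Western null, chow siAATF and chow null. Replicate 3 of Western siAATF lies far above replicates 1 and 2 for Ehhadh, Acaa1b, Acot1 and Acsl1, and Nudt7 is lowest in the 3 Western null libraries.

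Among the 9 peroxisomal members, replicate 3 of Western siAATF was far from replicates 1 and 2 for some and near them for others. Ehhadh (GRCm39, chr16:21580035-21606589, minus strand), the bifunctional enzyme of peroxisomal oxidation, stood at 151, 171 and 8144 CPM in Western siAATF, 812, 763 and 635 CPM in Western null, 403, 294 and 279 CPM in chow siAATF and 301, 299.8 and 216 CPM in chow null. Replicates 1 and 2 of Western siAATF were the lowest of all libraries, and replicate 3 was 54.1 and 47.7 times as high as they were and 10 times as high as the highest Western null library. With all libraries the log2 fold change of Western siAATF over Western null was 1.94 ± 1.28 (edgeR, adjusted p = 0.664), and without replicate 3 it was -2.21 ± 0.27 (edgeR, adjusted p = 5.23e-05). The diet difference was 1.44 ± 1.26 in the shared fit (edgeR, adjusted p = 0.501) and 1.44 ± 0.22 without replicate 3 (edgeR, adjusted p = 0.000219). Acaa1b, a peroxisomal thiolase, stood at 469, 378 and 7066 CPM in Western siAATF, 2326, 2589.6 and 2282 CPM in Western null, 998, 1166 and 1006 CPM in chow siAATF and 526, 980.2 and 639 CPM in chow null. As for Ehhadh, replicates 1 and 2 of Western siAATF were the lowest libraries and replicate 3 the highest. Its coding sequence is 96.6% identical to that of Acaa1a with a longest identical run of 327 bases, so reads could have been split between them or dropped, and both levels are uncertain.

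Pex11a, which takes part in peroxisome division, stood at 21.9, 26.8 and 233 CPM in Western siAATF, 117, 86.5 and 81.6 CPM in Western null, 25.9, 60.8 and 39.7 CPM in chow siAATF and 47.0, 28.8 and 36.0 CPM in chow null. Without replicate 3 it was lower in Western siAATF by 1.97 ± 0.34 on the log2 scale (edgeR, adjusted p = 0.00167), and with it the fold change was -0.032 ± 0.77 (edgeR, adjusted p = 0.994). Hsd17b4, the other bifunctional enzyme, moved less, at 552, 543 and 1071 CPM in Western siAATF, against 798 to 827 CPM in Western null. Scp2, a sterol carrier with thiolase activity, stood between 3641 and 5085 CPM in Western siAATF, with 4237 to 4761 CPM in Western null. The transporters Abcd2 and Abcd3 differed from each other. Abcd2 lay at 19.4 to 29.6 CPM in Western null, against 5.37 to 9.60 CPM in chow null. In chow siAATF it stood at 30.2, 5.85 and 3.34 CPM, with replicate 1 the highest of the 12 libraries. It rested on 16 to 330 counts per library. Abcd3 lay at 325 to 344 CPM in Western null and 290.2 to 614 CPM in chow null. Abcd2 was past the threshold with DESeq2 and limma-voom and not with edgeR (log2 fold change 1.87 ± 0.69, adjusted p = 0.0959).

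Nudt7 (GRCm39, chr8:114860314-114881471, plus strand) went the other way. It encodes a peroxisomal hydrolase that breaks down coenzyme A and its esters. Its levels were 277, 323 and 231 CPM in Western siAATF, 90.3, 100.2 and 95.02 CPM in Western null, 231, 335 and 288 CPM in chow siAATF and 374, 204 and 263 CPM in chow null. The 3 Western null libraries lay below the other 9, and replicate 3 of Western siAATF lay near the other two. Nudt7 fell in Western null by 1.56 ± 0.26 on the log2 scale against chow null (edgeR, adjusted p = 0.00118), and the call held in all 18 other settings. It was higher in Western siAATF than in Western null by 1.54 ± 0.26 (edgeR, adjusted p = 0.00827), a call lost without Western null replicate 1 or 3. The interaction was 1.52 ± 0.36 and did not pass (edgeR, adjusted p = 0.108).

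The thioesterases Acot1, Acot2 and Acot3 lie side by side on chromosome 12 between 84034635 and 84107174 (GRCm39, plus strand), with Acot4 among them. Acot1, the cytosolic enzyme, stood at 7.74, 2.04 and 792 CPM in Western siAATF, 49.4, 32.7 and 33.1 CPM in Western null, 29.1, 29.9 and 23.6 CPM in chow siAATF and 11.8, 39.0 and 21.6 CPM in chow null. Behind the Western siAATF values were 35, 9 and 1800 counts. Acot2, its mitochondrial relative, stood at 4.42, 3.40 and 415 CPM in Western siAATF, 71.1, 46.7 and 33.1 CPM in Western null, 5.29, 8.74 and 12.1 CPM in chow siAATF and 4.46, 12.4 and 7.23 CPM in chow null. For both, replicates 1 and 2 of Western siAATF were the lowest of the 12 libraries and replicate 3 the highest. Acot3, a peroxisomal relative, had 3, 6 and 475 counts in Western siAATF and 5, 57 and 206 counts in Western null. The log2 fold change of Acot1 for Western siAATF over Western null was 2.80 ± 1.66 with all libraries (edgeR, adjusted p = 0.624), -1.17 with limma-voom and -2.96 ± 0.51 without replicate 3 (edgeR, adjusted p = 0.00216). Coding sequences of Acot1 and Acot2 are 93.7% identical with an identical run of 273 bases, and Acot1 and Acot3 84.3% with a run of 203 bases, so the split of reads among them is uncertain. Acot12, an acetyl-CoA hydrolase of the cytosol, ranged from 45.6 to 137 CPM in Western siAATF and 83.4 to 107 CPM in Western null. Acot8, a peroxisomal enzyme, ranged from 5.97 to 19.8 CPM in Western siAATF and 2.39 to 15.8 CPM in Western null, with 58.8% of its span shared with other genes.

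Bdh1, which converts acetoacetate to beta-hydroxybutyrate, was the ketone body enzyme among the members. It stood at 226, 188 and 389 CPM in Western siAATF, 398, 381 and 375 CPM in Western null, 238, 251 and 282 CPM in chow siAATF and 166, 229.8 and 172 CPM in chow null. Western null lay above both chow groups, and replicate 3 of Western siAATF lay among the Western null values, not above them. Bdh1 rose in Western null against chow null by 1.02 ± 0.27 on the log2 scale (edgeR, adjusted p = 0.0183). Between Western siAATF and Western null the difference was -0.53 ± 0.26 (edgeR, adjusted p = 0.504), and -0.91 ± 0.23 without replicate 3 (edgeR, adjusted p = 0.0318). On chow it was 0.44 ± 0.26 with no overlap between siAATF and null (edgeR, adjusted p = 1).

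Other genes of these pathways were taken from 3 lists of genes that are not members, on ketone bodies, fatty acid oxidation, and PPARA targets and partners. Of 28 further fatty acid oxidation genes, 4 rose in Western null against chow null, Acad9, Acad12 and Acot9 among them, and 1 fell, Hacl1. Of all genes, 6.44% were called higher and 6.77% lower. Hacl1, which shortens branched fatty acids, fell by 1.35 ± 0.31 on the log2 scale (edgeR, adjusted p = 0.00943). Of 25 further PPARA targets and partners, 0 passed with edgeR, with 5 higher and 1 lower at an unadjusted p under 0.05, against 13.6% and 14.8% of all genes. DESeq2 called 2 of them higher and limma-voom 3, against 4.41% and 8.08% of all genes. In Western siAATF against Western null, 0 of the 59 genes of the 3 lists passed with edgeR, with 3 higher and 3 lower at an unadjusted p under 0.05, against 5.56% and 5.09% of all genes. DESeq2 called 1 of the 59 higher and 1 lower, against 0.565% and 0.601% of all genes, and limma-voom 0. Cyp4a10, a fatty acid hydroxylase, stood at 99.1, 172 and 3797 CPM in Western siAATF, against 481 to 774 CPM in Western null. It was chosen after its values were seen. The median of the 25 targets and partners, as log2 difference from the chow null mean, was -0.38, -0.42 and 1.39 in Western siAATF, which follows that of the 41 members at -0.19, -0.14 and 1.23.

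**Figure D5:**
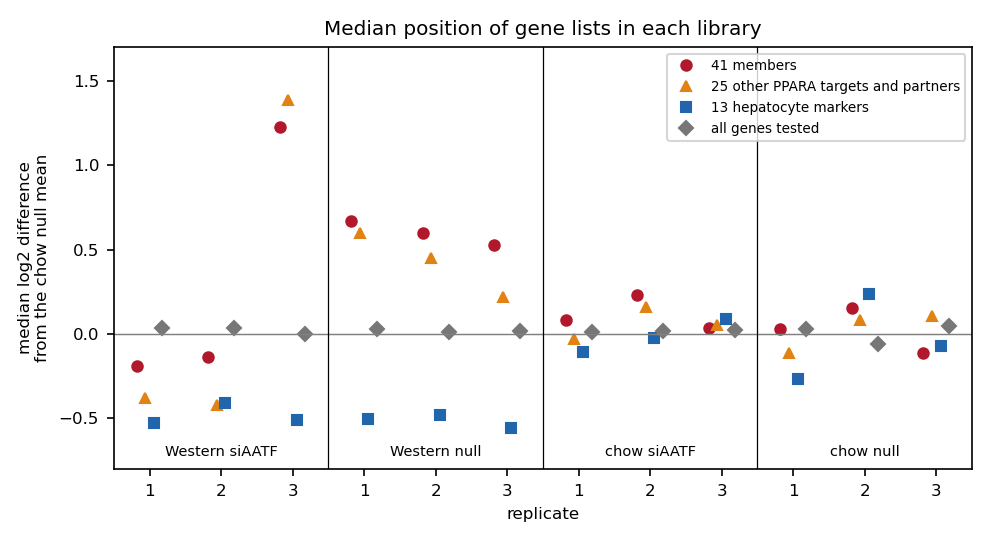
Median log2 difference from the chow null mean in each library, for the 41 members tested, 25 other PPARA targets and partners, 13 hepatocyte markers and all genes tested. The members and the PPARA list lie highest in Western siAATF replicate 3, between 0.22 and 0.67 in Western null and below 0 in Western siAATF replicates 1 and 2, while the hepatocyte markers lie between -0.55 and -0.41 in all 6 Western libraries.

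Markers of liver cell types were read beside these results. Counts of markers called stand against 6.44% of all genes higher and 6.77% lower in Western null against chow null. For Western siAATF against Western null the shares of all genes were 0.31% and 0.561%. In bulk tissue, fewer cells of a type and less RNA per cell cannot be told apart. A marker at 0 in every library is not read here as absent from the tissue, and why it was at 0 was not tested. Of 14 hepatocyte markers 13 had counts and Tf was at 0 in every library. Their summed level was 68742, 82536 and 58807 CPM in Western siAATF and 65598 to 73541 CPM in Western null, against 93131 to 96394 CPM in chow siAATF and 89316 to 118684 CPM in chow null. Replicate 3 of Western siAATF had the lowest sum of the 12 libraries. The median of the markers did not set it apart (-0.52, -0.41 and -0.51 in Western siAATF, -0.50, -0.48 and -0.55 in Western null). Single markers went both ways: Alb stood at 27935, 32470 and 21927 CPM in Western siAATF, and Asgr1 at 306, 247 and 386 CPM. Fgb stood at 4535, 7307 and 1689 CPM there. Of the 13 tested, Fgb, Hnf4a and Pck1 fell in Western null against chow null. None passed between Western siAATF and Western null. Markers of lipid-associated macrophages summed to 387 to 419 CPM in Western siAATF, 776 to 869 CPM in Western null, 274 to 291 CPM in chow siAATF and 227 to 309 CPM in chow null. Of these 10 markers, 9 rose in Western null against chow null and 6 fell in Western siAATF against Western null, with Gpnmb, Trem2 and Mmp12 at 0 in some libraries. Fabp5 went the other way in both, by -0.94 ± 0.40 and 1.34 ± 0.40, and did not pass (edgeR, adjusted p = 0.132 and 0.165). Ctsd made up most of the sums, at 440 to 486 CPM in Western null and 186 to 281 CPM in chow null. The 9 Kupffer cell and macrophage markers summed to 846, 551 and 335 CPM in Western siAATF, 401 to 751 CPM in Western null, 160 to 332 CPM in chow siAATF and 208 to 340 CPM in chow null. Of them 4 rose and 1 fell in Western null against chow null, and 0 passed between Western siAATF and Western null. Marco, a scavenger receptor of Kupffer cells, stood at 180, 99.9 and 6.602 CPM in Western siAATF and 2.42 to 7.84 CPM in Western null. Its log2 fold change between these groups, 4.55, was the highest of the 9 markers, whose median was -0.17. Clec4f, Timd4 and Vsig4 also had positive fold changes, and Adgre1, Cd68, Csf1r, C1qa and C1qb negative ones. Ptprc, which encodes the leukocyte antigen CD45, stood at 38.7, 63.1 and 6.602 CPM in Western siAATF and 26.2 to 31.7 CPM in Western null. The 5 T and B cell markers with counts, Ptprc among them, summed to 42.9, 68.1 and 7.92 CPM in Western siAATF. They summed to 30.1 to 34.4 CPM in Western null, with Ms4a1 at 0 in every library. Ptprc made up most of these sums and was the only 1 of them to pass the low-count filter. The sums therefore say little about T and B cells. For both lists replicate 3 was thus the lowest of the 3 Western siAATF libraries. The 7 stellate cell markers with counts summed to 580, 335 and 711 CPM in Western siAATF and 1006 to 1393 CPM in Western null, against 226 to 329 CPM in chow siAATF and 221 to 327 CPM in chow null, with Lrat at 0 in every library. Most of the Western null sum was collagen, with Col1a1 at 200 to 350 CPM and Col3a1 at 467 to 591 CPM. Des stood at 175 CPM in Western siAATF replicate 1 and at most 11.3 CPM in any other library. Endothelial markers summed to 245 to 285 CPM in Western siAATF and 295 to 357 CPM in Western null, against 169 to 202 CPM in chow siAATF and 199 to 237 CPM in chow null. In Western null against chow null 4 of 7 stellate and 3 of 6 endothelial markers tested rose, and 0 of either passed between Western siAATF and Western null. Cholangiocyte markers summed to 24.2 to 43.3 CPM in Western siAATF and 97.8 to 219.7 CPM in Western null. They summed to 19.9 to 39.4 CPM in chow siAATF and 21.7 to 32.2 CPM in chow null. Most of the Western null sum was Spp1, at 199, 88.3 and 167 CPM, which is also on the list of lipid-associated macrophages. Of the 4 tested, Spp1 and Epcam rose in Western null against chow null. Sox9 averaged 6.97 CPM in Western null and 12.2 CPM in chow null. Between Western siAATF and Western null, Spp1 alone passed, and it was lower. The pancreatic marker Cela1, the only 1 of 4 with counts, stood at 2.87 to 6.602 CPM in Western siAATF and 3.75 to 5.75 CPM in Western null, against 6.61 to 18.9 CPM in chow siAATF and 13.3 to 16.4 CPM in chow null. Of the 4 adipocyte markers, Cfd stood at 102 CPM in Western siAATF replicate 3 and at most 5.11 CPM elsewhere, while Adipoq, Lep and Plin1 were at 0 in that library. Replicate 3 also had the lowest share of 18S and a small total of 1989409 counts. The part of cell makeup, depth or 18S share in the levels of the members was not tested.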

How the data were processed

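Per the labels' protocols, libraries of liver RNA were made with a SMART-Seq kit. The deposited counts are whole numbers per gene. The submitters' processing notes name STAR 2.7.11, featureCounts 2.0.1, DESeq2 1.42.0, R 4.3.2 and build GRCm39. How strand and reads on overlapping genes were handled is not given in the sources used here. For all 50499 genes the length column equals the whole span, so introns were counted.

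From the counts as deposited, edgeR 4.0.16 (R 4.3.3) kept 11934 genes (filterByExpr by group). One quasi-likelihood fit with TMM scaling and robust dispersions took all 12 libraries, with 8 residual degrees of freedom and Benjamini-Hochberg adjustment per comparison at 0.05. CPM use TMM library sizes. Per-library medians use log2 CPM with a prior count of 2, relative to the chow null mean.

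Alternatives were limma-voom (limma 3.58.1), DESeq2 1.42.0, other scalings and filters, the compared groups alone, left-out libraries and the replicate block. The members and lists were chosen with earlier results of these data known. Members past the threshold in any comparison, and Ppara, Cpt1a, Acadm, Hadha, Ehhadh, Acot1, Bdh1, Pdk4, Fgf21 and Creb3l3 whatever their values, are given in every library, and from the other lists up to 4 genes per comparison by adjusted p. Acaa1b, Acot2, Acot3, Acsl1, Crat, Eci1, Pex11a and Cyp4a10 were added after their values were seen. Some genes of the other lists are not reported here. No pair of replicates agreed within sampling noise: with 18S left out, chi-square divided by its degrees of freedom was 4.92 or more. That sets libraries against counting noise only and does not show that they are separate mice. Each library was counted as 1 replicate because the labels number it so. Promoters are RefSeq entries on GRCm38.p6, and coding sequences were compared from the GENCODE annotation of that build.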

Additional observations from a re-analysis of the deposited data

How the results depend on the processing

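Counts of members called moved with the processing as follows, each beside the share of all genes called in that fit. For DESeq2 and for edgeR without the low-count filter that share is of 22289 genes, against 11934 in the main fit. For Western null over chow null the 5 higher members (6.44% of all genes) became 7 with DESeq2 (4.41%) and limma-voom (8.08%). They became 16 without the low-count filter (4.13%) and 17 with the compared groups alone (8.39%). The number was 0 to 5 when a library of either group was left out (2.78% to 6.51%). It was 17 without Western siAATF replicate 3 (9.08%, added after the data were seen). Leaving out the libraries over 25% 18S kept only replicate 3 of chow null, so calls of that fit are not given for this comparison. For Western siAATF over Western null, 6 were higher and 1 lower without the filter (1.73% and 0.839%), and leaving out a library gave 0 to 1 higher (0.0486% to 1.62%) and 0 to 11 lower (0.14% to 1.71%). For Western siAATF over chow siAATF, 9 were higher without the filter (2.5%) and 1 with DESeq2 (1.22%), and leaving out a library gave 0 to 1 higher (0.0819% to 3.26%) and 0 to 5 lower (0.197% to 2.7%). For the interaction, 4 were higher and 2 lower without the filter (1.00% and 0.48%), 1 was higher with DESeq2 (0.292%), and leaving out a library gave 0 to 1 higher (0.0081% to 1.16%) and 0 to 10 lower (0.00824% to 1.23%). Chow siAATF over chow null gave 0 members under every alternative run, and at most 0.0763% of all genes in either direction. Fits without replicate 3 have fewer samples and a smaller spread. Otherwise the cause was not tested.

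Fold changes that changed sign were small or did so when replicate 3 was left out. Those of Ehhadh and Acot1 also changed sign with limma-voom, which kept all 12 libraries. The cause was not tested. For Western null over chow null, Ppara gave -0.00037 without the libraries over 25% 18S. Creb3l3 gave -0.019 without the filter, -0.10 with the trend on gene span removed, -0.013 with the replicate block and -0.080 to 0.12 with a library left out. For Western siAATF over Western null without the libraries over 25% 18S, Ppara gave 0.037 and Hadha 0.022. With a library left out, Ppara ranged from -0.36 to 0.090, Hadha from -0.53 to 0.049, Ehhadh from -2.21 to 2.50, Acot1 from -2.96 to 3.38 and Creb3l3 from -0.22 to 0.66. With limma-voom Ehhadh gave -0.27 and Acot1 -1.17. Same-numbered libraries did not deviate together (correlations from -0.378 to 0.259, and 1 of 12 libraries was closest to its own number), so samples were not paired by number. These correlations cannot exclude a shared handling that the labels do not state. With the replicate block the counts of members were 5 higher and 1 lower for the diet and 1 higher for the vector on the Western diet, as without it. Over all genes the block gave 573 higher and 584 lower for the diet, against 769 and 808 without it. Low counts limit Fgf21, Pdk4, Acot3, Acot8 and Abcd2.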
